A study of Mus musculus with 12 samples.

Results

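Imprinted genes are transcribed mainly from the copy inherited from 1 parent, and the 7 described here lie outside the Meg3 locus. They are Plagl1, Igf2, Peg3, Mest, Slc38a4, Phlda2 and Nnat, and were chosen by gene symbol from a table of microarray levels that names 9539 genes. Each gene had 1 probe set, the group of array probes that reads a gene, so 7 of the 10360 probe sets of the table are described. The table holds 12 Affymetrix arrays of mouse cells in 4 groups of 3, made to follow reprogramming with a pair of factors. These are Oct4, a transcription factor of pluripotent cells whose gene is Pou5f1, and the dioxygenase Tet1, which acts on methylated DNA.

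Fibroblasts were at passage 3 with the background OG2-GFP/Rosa26-M2rtTA. The labels of replicates 2 and 3 of this group read Rosa26-M3rtTA and Rosa26-M4rtTA in its place. Day-1 cells were also fibroblasts of passage 3 with the M2rtTA background, but came from mice derived from iPS cells that Oct4 and Tet1 had produced, and had spent 1 day in ES medium containing doxycycline. M2rtTA is a transactivator that doxycycline switches on, expressed here from the Rosa26 locus, and OG2-GFP is a reporter of Oct4 transcription. The iPS cells were 1 line, OT#b, at passage 10, made with Oct4 and Tet1 on the same background. R1, the ES line, was at passage 20 and had a 129 background. Both pluripotent lines grew with serum and LIF on feeder fibroblasts whose division had been stopped by mitomycin C. Before RNA was taken, feeders were left to settle onto a fresh dish, a step stated for ES cells and not named for iPS cells. Strain, line and passage differ together between iPS and ES cells, and their parts cannot be told apart. Whether replicate arrays stem from separate cultures is not stated, and p-values therefore measure only the spread between these samples, which may be technical.

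An imprint is set as DNA methylation at a control region in the egg or sperm and is kept through cell division by factors such as ZFP57, TRIM28 and DNMT1. Of the 7 genes, Phlda2 is expressed from the maternal copy and the other 6 from the paternal copy. Many imprinted genes act on growth of the embryo and placenta. Because imprints can be lost or altered in culture, their expression is commonly examined in ES and iPS lines.

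Pou5f1 on the fibroblast arrays had log2 levels of 4.96, 5.24 and 4.91, and lay at 11.73 to 12.37 on the 9 arrays of the other 3 groups. Genes are counted as measured when the table names them alone on a probe set. A gene absent from it may still have been on the array, and shares of all genes are shares of this table. All 10 pluripotency markers were measured, and their levels summed to 8.61 to 8.83 in fibroblasts (log2 of the sum), 11.89 to 12.01 in day-1 cells, 15.18 to 15.20 in iPS cells and 15.32 to 15.37 in ES cells. In day-1 cells 1 of the 10, Pou5f1, was called higher than in fibroblasts. Between iPS and ES cells Zfp42 alone was called, and was lower in iPS cells (log2 difference -2.77). A sum of this kind is set mostly by the brightest markers. Of 12 fibroblast markers 11 were measured, and their log2 sum was 14.82 to 15.07 in fibroblasts, 14.80 to 14.86 in day-1 cells, 13.76 to 13.82 in iPS cells and 11.32 to 12.01 in ES cells. That sum was above every ES array on all 3 iPS arrays, although Lum and Pdgfra were lower in iPS than in ES cells. In a bulk sample, fewer cells of a type and less RNA per cell cannot be told apart. The median array level was 8.27 to 8.32 in fibroblasts, 8.28 to 8.31 in day-1 cells, 7.99 to 8.08 in iPS cells and 7.91 to 7.98 in ES cells, and the number of arrays limits the precision. A gene was called when limma, which fits all genes of the table, gave an adjusted p under 0.05 and a log2 difference of at least 1, which is 2-fold. Differences below are on the log2 scale, with the standard error (SE).

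The 7 genes differ in the sequence just before their transcription start, where CpG sites, the targets of DNA methylation, are dense in some and sparse in others. RefSeq promoters of build GRCm38.p6 matched all 7 genes, with 14 start sites in all. The 250 bases before each start were examined, and for genes with several starts the one with the most CpG sites is shown (for Mest and Slc38a4, 1 of 2 starts with the same number). The windows printed are those of the genes that differ most between groups, with CpG sites in capitals.
Plagl1, chr10:13090582-13090831, plus strand: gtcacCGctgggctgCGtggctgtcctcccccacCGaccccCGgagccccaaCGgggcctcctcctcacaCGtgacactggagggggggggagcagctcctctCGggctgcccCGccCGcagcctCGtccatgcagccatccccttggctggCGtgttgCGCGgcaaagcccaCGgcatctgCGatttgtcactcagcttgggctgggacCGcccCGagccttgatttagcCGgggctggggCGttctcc
Igf2, chr7:142658805-142659054, minus strand: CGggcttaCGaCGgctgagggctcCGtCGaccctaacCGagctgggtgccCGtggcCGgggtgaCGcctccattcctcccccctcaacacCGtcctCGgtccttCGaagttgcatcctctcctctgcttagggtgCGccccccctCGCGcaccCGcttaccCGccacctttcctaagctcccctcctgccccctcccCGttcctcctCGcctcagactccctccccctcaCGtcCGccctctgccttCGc
Mest, chr6:30737800-30738049, plus strand: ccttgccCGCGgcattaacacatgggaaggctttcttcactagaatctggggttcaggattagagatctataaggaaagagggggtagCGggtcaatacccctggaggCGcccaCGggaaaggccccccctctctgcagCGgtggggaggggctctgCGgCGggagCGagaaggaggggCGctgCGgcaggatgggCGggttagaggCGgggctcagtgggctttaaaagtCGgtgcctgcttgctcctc
Phlda2, chr7:143502525-143502774, minus strand: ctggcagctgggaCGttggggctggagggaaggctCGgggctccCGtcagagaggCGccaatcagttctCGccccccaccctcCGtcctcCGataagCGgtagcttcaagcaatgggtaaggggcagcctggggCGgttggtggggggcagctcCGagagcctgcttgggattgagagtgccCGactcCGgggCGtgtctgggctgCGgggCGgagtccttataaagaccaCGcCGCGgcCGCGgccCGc
Slc38a4, chr15:97020360-97020609, minus strand: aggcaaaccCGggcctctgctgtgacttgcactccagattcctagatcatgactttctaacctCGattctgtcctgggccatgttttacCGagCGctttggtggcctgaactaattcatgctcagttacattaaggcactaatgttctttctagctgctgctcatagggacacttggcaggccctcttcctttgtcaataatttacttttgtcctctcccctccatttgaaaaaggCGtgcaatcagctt

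These windows hold 19 CpG sites for Plagl1, 22 for Igf2, 14 for Mest, 21 for Phlda2 and 5 for Slc38a4, against a median of 6 over 32851 promoters of the same length. At least as many sites as in the Igf2 window are found in 14.8% of all promoters, and as many as in the Slc38a4 window in 55.6%. Peg3 had 8 sites and Nnat 12, and the 3 other starts of Igf2 had 10, 6 and 1. TGCCGC, the methylated motif that ZFP57 binds, was searched on both strands. It occurred once before Plagl1 and at 2 places in the Mest window printed, and in 8.68% of all promoters. GGGGCCCC, a motif bound by the zinc finger protein that Plagl1 encodes, reads the same on both strands. It occurred before Peg3 and before none of the 13 other starts, and in 0.889% of all promoters. The array data give no methylation or binding at these places, so a match is a property of the sequence alone.

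Plagl1 and Igf2 were both lowest in ES cells. Plagl1, also named Zac1, encodes a zinc finger transcription factor that restrains cell division and regulates other imprinted genes. Its log2 levels were 8.83, 8.54 and 8.80 in fibroblasts, 9.22, 9.29 and 9.39 in day-1 cells, 9.93, 9.94 and 10.01 in iPS cells and 7.87, 8.19 and 7.33 in ES cells. The 4 groups do not overlap, and the iPS arrays are the highest. In iPS cells Plagl1 rose 2.36-fold over fibroblasts (1.24 ± 0.16, SE; limma adjusted p = 7.0e-06) and was 4.48-fold above ES cells (2.16 ± 0.16; adjusted p = 3.3e-07). The first of these calls ended when the test itself asked for more than 2-fold (limma's treat; adjusted p = 0.19). From day-1 to ES cells it differed by -1.50 ± 0.16 (adjusted p = 1.0e-06), a call in the lower direction. The steps from fibroblasts to day-1 cells (0.58 ± 0.16; adjusted p = 0.0086) and from day-1 to iPS cells (0.66 ± 0.16; adjusted p = 0.0017) were under 2-fold. ES cells lay below fibroblasts by less than 2-fold (-0.92 ± 0.16; adjusted p = 1.1e-04), and this became a call without ES replicate 2 (-1.12) or without fibroblast replicate 2 (-1.02).

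Igf2 encodes insulin-like growth factor 2, a growth factor of the fetus and placenta that signals through the receptor encoded by Igf1r. The levels were 10.06, 10.41 and 10.37 in fibroblasts, 11.08, 10.93 and 11.05 in day-1 cells, 10.68, 10.56 and 10.66 in iPS cells and 8.65, 9.44 and 8.34 in ES cells. Every ES array lies below every array of the other 3 groups, and those 3 do not overlap each other either. ES cells were called lower than fibroblasts (-1.47 ± 0.21; adjusted p = 1.2e-05) and day-1 cells (-2.21 ± 0.21; adjusted p = 2.1e-07), and iPS cells were 3.55-fold above ES cells (1.83 ± 0.21; adjusted p = 9.2e-06). Among the other groups no Igf2 difference reached 2-fold. Day-1 cells differed from fibroblasts by 0.74 ± 0.21 (adjusted p = 0.0079). iPS cells differed from fibroblasts by 0.36 (95% interval -0.09 to 0.80; adjusted p = 0.11) and from day-1 cells by -0.38 (95% interval -0.83 to 0.06; adjusted p = 0.092), so in both cases the intervals stay within 2-fold without showing that the levels are equal.

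The ES arrays spread widely for Plagl1 and Igf2. The standard deviation among them was 0.43 for Plagl1 and 0.57 for Igf2, higher than for 98.2% and 99.2% of the 9539 genes, while it was 0.02 to 0.15 for the 5 other genes. Replicate 2 was the highest ES array for both, by 0.59 for Plagl1 and 0.95 for Igf2 over the mean of the other two. Fibroblast markers showed the same array as highest. Their log2 sum was 12.01 on ES replicate 2 and 11.32 and 11.40 on replicates 1 and 3. On replicate 2, 8 of 11 of them were highest, as were 7 of 7 smooth muscle markers, 6 of 10 pluripotency markers and 41.9% of all genes. Log2 sums of pluripotency (15.37), trophoblast (9.91) and endoderm markers (8.44) were also highest on replicate 2. Those of macrophage (10.58) and neural markers (9.68) were not highest there. Lox, which cross-links collagen, stood 1.39 above the mean of the other two arrays, Postn 1.05 and Col1a1 0.70, whereas Pdgfra (-0.05), Lum (0.01) and Fap (0.02) did not stand out. Without ES replicate 2, the difference of iPS from ES cells was 2.36 for Plagl1 and 2.14 for Igf2. The part of these fibroblast transcripts in the levels of Plagl1 and Igf2 was not tested.

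**Figure D1:**
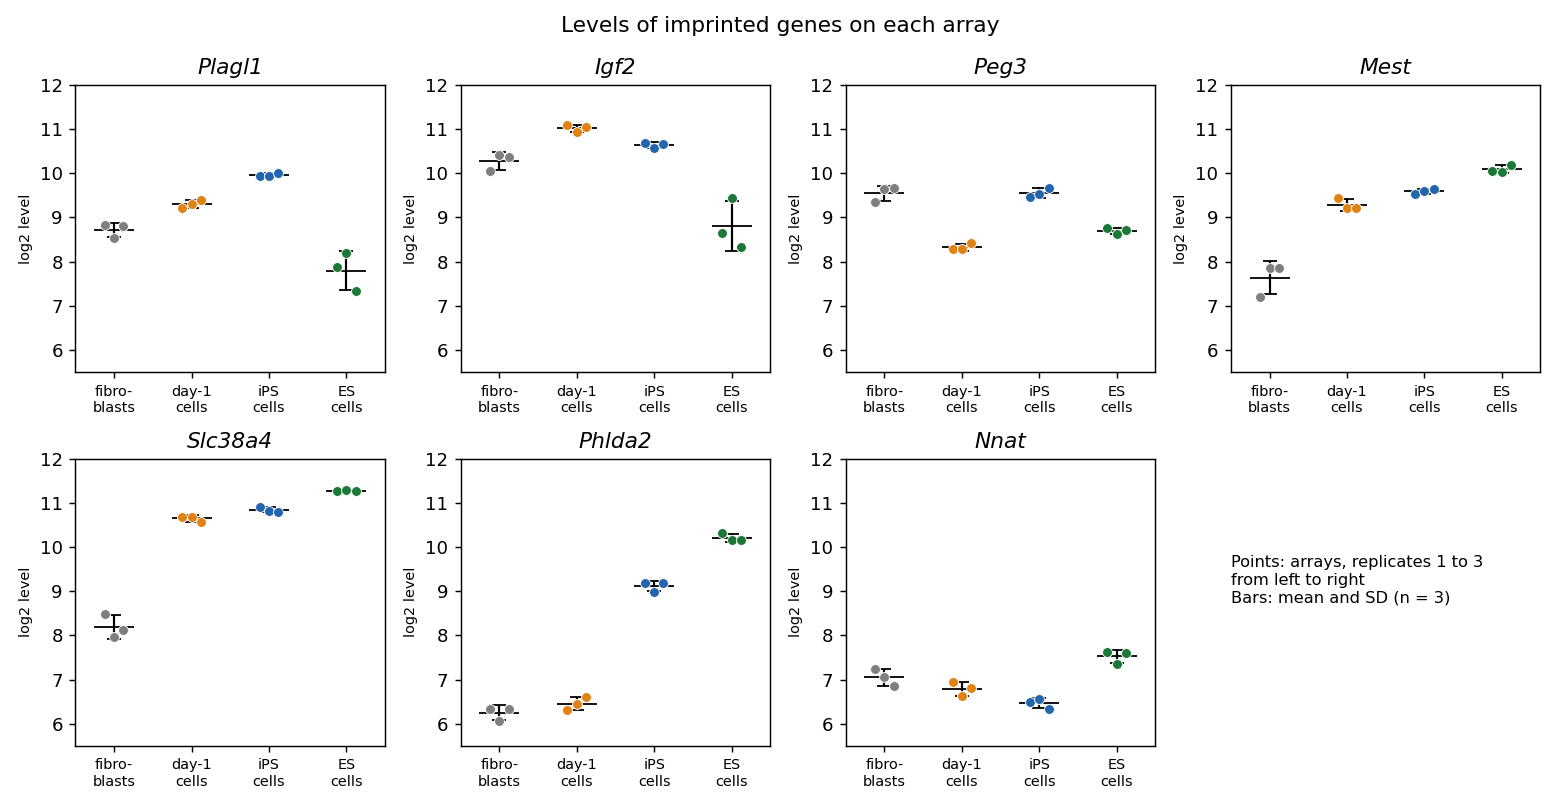
Log2 levels of the 7 genes (y axis) on each of the 3 arrays of the 4 groups (x axis), with the mean and SD of each group. Plagl1 and Igf2 are lowest in ES cells, where their arrays spread by 7.33 to 8.19 and 8.34 to 9.44, Mest and Slc38a4 are lowest in fibroblasts, and Phlda2 separates the pluripotent lines from the fibroblast groups.

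Mest and Slc38a4 were lowest in fibroblasts and called higher in each of the other 3 groups. Mest, also named Peg1, encodes a protein of the alpha/beta hydrolase family named for its expression in mesoderm. Its fibroblast arrays read 7.20, 7.85 and 7.86, the day-1 arrays 9.44, 9.22 and 9.21, the iPS arrays 9.53, 9.61 and 9.64, and the ES arrays 10.04, 10.03 and 10.20. The fibroblast arrays lie far below all others, and the remaining groups follow each other closely without overlap. Mest rose 3.14-fold in day-1 cells (1.65 ± 0.15; adjusted p = 1.0e-06), 3.87-fold in iPS cells (1.95 ± 0.15; adjusted p = 2.0e-08) and 5.47-fold in ES cells (2.45 ± 0.15; adjusted p = 1.6e-09), each against fibroblasts. Day-1 and iPS cells, neighbours in this order, were not told apart (0.30; 95% interval -0.01 to 0.62; adjusted p = 0.063). The difference of iPS from ES cells was -0.50 ± 0.15 (adjusted p = 0.010) and that of ES from day-1 cells 0.80 ± 0.15 (adjusted p = 1.4e-04), both under 2-fold, although the latter became a call with arrays centred on a common median (1.15).

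Slc38a4 encodes a sodium-coupled carrier of neutral amino acids that is active in liver and placenta. Fibroblast levels were 8.49, 7.97 and 8.13, against 10.69, 10.69 and 10.56 in day-1 cells, 10.90, 10.82 and 10.80 in iPS cells and 11.28, 11.30 and 11.26 in ES cells. Every fibroblast array lies far below the rest, and the other 3 groups are close together without overlap. The difference from fibroblasts was 2.45 ± 0.11 in day-1 cells (5.47-fold; adjusted p = 2.8e-09), 2.65 ± 0.11 in iPS cells (6.26-fold; adjusted p = 5.6e-11) and 3.08 ± 0.11 in ES cells (8.47-fold; adjusted p = 9.8e-12). Day-1 and iPS cells differed by 0.20 (95% interval -0.04 to 0.43; adjusted p = 0.10). ES cells were above iPS cells by less than 2-fold (iPS minus ES -0.44 ± 0.11; adjusted p = 0.0039), and so they were above day-1 cells (0.63 ± 0.11; adjusted p = 8.6e-05).

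Day-1 cells also differed from fibroblasts in the markers of other cell types. Neural markers, of which 5 of 7 were measured, had a log2 sum of 11.28 to 11.32 in day-1 cells against 8.75 to 9.02 in fibroblasts, 9.78 to 9.80 in iPS cells and 9.66 to 9.76 in ES cells, and 4 of the 5 were called higher in day-1 cells than in fibroblasts. Smooth muscle markers, all 7 measured, summed to 14.55 to 14.58 in day-1 cells and 14.18 to 14.40 in fibroblasts without overlap, and 3 of the 7 were called higher, Des (1.59 ± 0.09), Actg2 (1.43 ± 0.16) and Myh11 (1.35 ± 0.10). Macrophage markers (7 of 10 measured) summed to 10.45 to 10.63 in day-1 cells and 10.93 to 11.24 in fibroblasts, but its members went both ways. Adgre1 (-2.00 ± 0.11), Cd14 (-1.54 ± 0.11) and Lyz2 (-1.03 ± 0.15) were called lower in day-1 cells and C1qb (1.48 ± 0.12) higher. Among all genes, 3.46% were called higher and 4.33% lower in day-1 cells than in fibroblasts. The fibroblast marker sums of the 2 groups overlapped. Day-1 cells and fibroblasts differ in doxycycline, medium and the source of the cells together, and the part of any of these, or of other cell types, in the levels of Mest and Slc38a4 was not tested.

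Peg3 was the only one of the 7 genes called lower in day-1 cells. It encodes a large zinc finger protein that represses transcription. Levels were 9.35, 9.64 and 9.66 in fibroblasts, 8.28, 8.29 and 8.42 in day-1 cells, 9.46, 9.53 and 9.67 in iPS cells, and 8.77, 8.63 and 8.71 in ES cells. Fibroblast and iPS arrays overlap, and the day-1 and ES arrays lie below both. Peg3 was 2.33-fold lower in day-1 cells than in fibroblasts (-1.22 ± 0.09; adjusted p = 2.6e-07), a call that ended under limma's treat, a test against a 2-fold difference (adjusted p = 0.37). In iPS cells Peg3 was 2.33-fold above day-1 cells (1.22 ± 0.09; adjusted p = 2.8e-08). iPS cells and fibroblasts differed by 0.00 (95% interval -0.20 to 0.20; adjusted p = 0.97), and the sign of that difference turned under 3 of the alternatives. ES cells differed from fibroblasts by -0.85 ± 0.09 (adjusted p = 9.5e-07) and from day-1 cells by 0.37 ± 0.09 (adjusted p = 0.0017), both under 2-fold. The iPS level was 0.85 ± 0.09 above that of ES cells (adjusted p = 6.6e-06), also under 2-fold.

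Phlda2 was the gene with the largest range among the 7, and the one expressed from the maternal copy. It encodes a small protein with a pleckstrin homology domain that limits growth of the placenta. Fibroblast arrays read 6.34, 6.05 and 6.34 and day-1 arrays 6.30, 6.45 and 6.60, while iPS arrays read 9.18, 8.98 and 9.18 and ES arrays 10.31, 10.16 and 10.15. The fibroblast and day-1 arrays overlap, and both pluripotent lines stand well above them. The level rose 7.30-fold in iPS cells (2.87 ± 0.10; adjusted p = 1.8e-11) and 15.6-fold in ES cells (3.96 ± 0.10; adjusted p = 8.8e-13) over fibroblasts, and by 2.66 ± 0.10 and 3.75 ± 0.10 over day-1 cells (adjusted p = 5.6e-11 and 1.9e-12). iPS cells stayed 2.13-fold below ES cells (-1.09 ± 0.10; adjusted p = 2.2e-06), a call that ended under limma's treat. Day-1 cells differed from fibroblasts by 0.21 (95% interval -0.02 to 0.43; adjusted p = 0.10). Trophoblast markers, of which 4 of 9 were measured, had a log2 sum of 9.54 to 9.71 in iPS cells and 9.50 to 9.91 in ES cells against 7.74 to 8.24 in the fibroblast and day-1 groups. Those measured were Eomes, Krt8, Krt18 and Tfap2c. Cdx2, Elf5, Hand1, Gcm1 and Prl3d1 had no probe set of their own in the table, which leaves their levels unknown. Whether trophoblast cells were present, and any part of them in the level of Phlda2, was not tested.

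Nnat varied least among the 7. It encodes neuronatin, a small membrane protein of the endoplasmic reticulum that is abundant in developing brain. Its levels were 7.23, 7.05 and 6.86 in fibroblasts, 6.94, 6.63 and 6.80 in day-1 cells, 6.49, 6.56 and 6.34 in iPS cells and 7.63, 7.36 and 7.60 in ES cells. ES arrays are the highest and iPS arrays the lowest, and fibroblast and day-1 arrays overlap. The sole call was between iPS and ES cells, where iPS cells were 2.10-fold lower (-1.07 ± 0.11; adjusted p = 5.6e-06), and it too ended under limma's treat. Day-1 cells differed from fibroblasts by -0.26 (95% interval -0.50 to -0.01; adjusted p = 0.070). iPS cells differed from fibroblasts by -0.59 ± 0.11 (adjusted p = 2.4e-04), ES cells from fibroblasts by 0.48 ± 0.11 (adjusted p = 0.0011) and iPS from day-1 cells by -0.33 ± 0.11 (adjusted p = 0.014), all under 2-fold. The difference of ES from day-1 cells was 0.74 ± 0.11 (adjusted p = 3.1e-05), and became a call with arrays scaled by their quantiles (1.06) or centred (1.09).

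**Figure D2:**
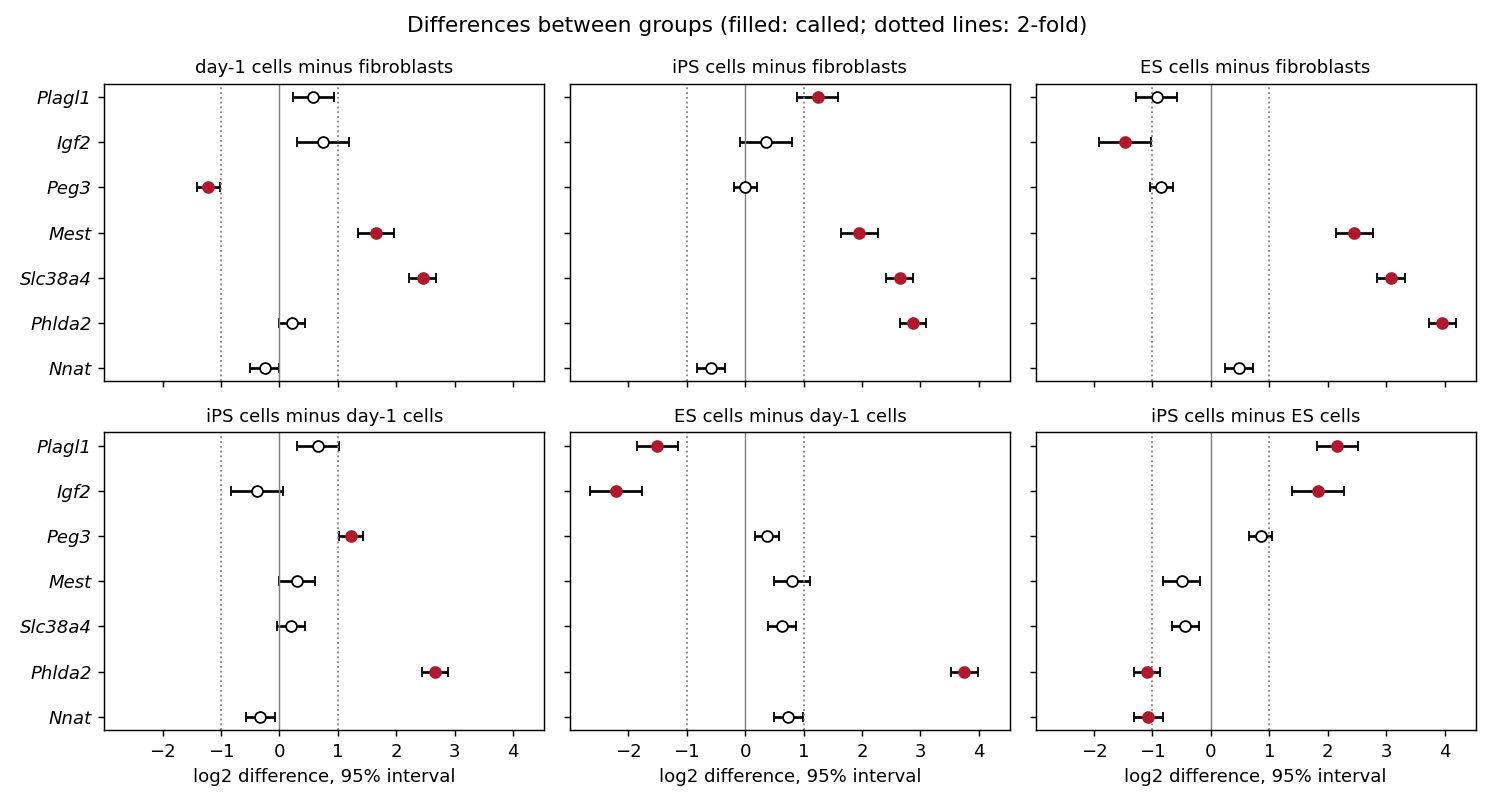
Log2 difference of each of the 7 genes in the 6 comparisons (x axis, with 95% intervals from limma; y axis, genes). Filled points were called, and dotted lines mark 2-fold. In the panel of iPS against ES cells Plagl1 (2.16) and Igf2 (1.83) lie right of the dotted line and Phlda2 (-1.09) and Nnat (-1.07) left of it.

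Taking the comparisons in turn, 3 of the 7 genes were called in day-1 cells against fibroblasts, Mest and Slc38a4 higher and Peg3 lower, with 3.46% of the 9539 genes called higher and 4.33% lower. In iPS cells against fibroblasts, Plagl1, Mest, Slc38a4 and Phlda2 rose and 0 genes fell, with 21.8% of all genes called higher and 29.6% lower. None of the 7 was called lower by limma there. An unadjusted limma p under 0.05 was found for 5, the 4 called higher and Nnat (-0.59). Among all 9539 genes, 8985 had an adjusted p under 0.05. In ES cells against fibroblasts, Mest, Slc38a4 and Phlda2 rose and Igf2 fell, against 23.4% higher and 32.1% lower. Against day-1 cells, Peg3 and Phlda2 rose in iPS cells (17.6% of all genes higher, 26.6% lower). In ES cells against day-1 cells Phlda2 rose and Plagl1 and Igf2 fell (20.4% higher, 29.5% lower). In the comparisons of the pluripotent lines with fibroblasts, where over 50% of all genes were called in either direction, a count of 4 of 7 lies near the background.

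Between iPS and ES cells 4 of the 7 genes were called, Plagl1 and Igf2 higher and Phlda2 and Nnat lower in iPS cells, beside 4.44% higher and 2.45% lower among all genes tested. The 7 genes were chosen with earlier results of these data known, so this count supports nothing further. Fibroblast markers moved with the comparison: 6 of 11 were higher in iPS cells, 0 were lower, and 5 were not called, with a median difference of 1.55 against 0.01 over all genes. All 7 smooth muscle markers were higher in iPS cells as well. In iPS cells against fibroblasts 6 of the 11 fibroblast markers fell (median -1.59), beside 29.6% of all genes, 5 were not called and 0 rose. Of the 11, 9 had a negative difference and 2 a positive one, Col1a1 (0.26) and Col1a2 (0.19). In that comparison Plagl1 rose (1.24) and Igf2 was not called (0.36). The part of fibroblast and smooth muscle transcripts in the differences between iPS and ES cells was not tested. Under limma's treat 2 of the 7 genes, Plagl1 and Igf2, were called between iPS and ES cells.

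**Figure D3:**
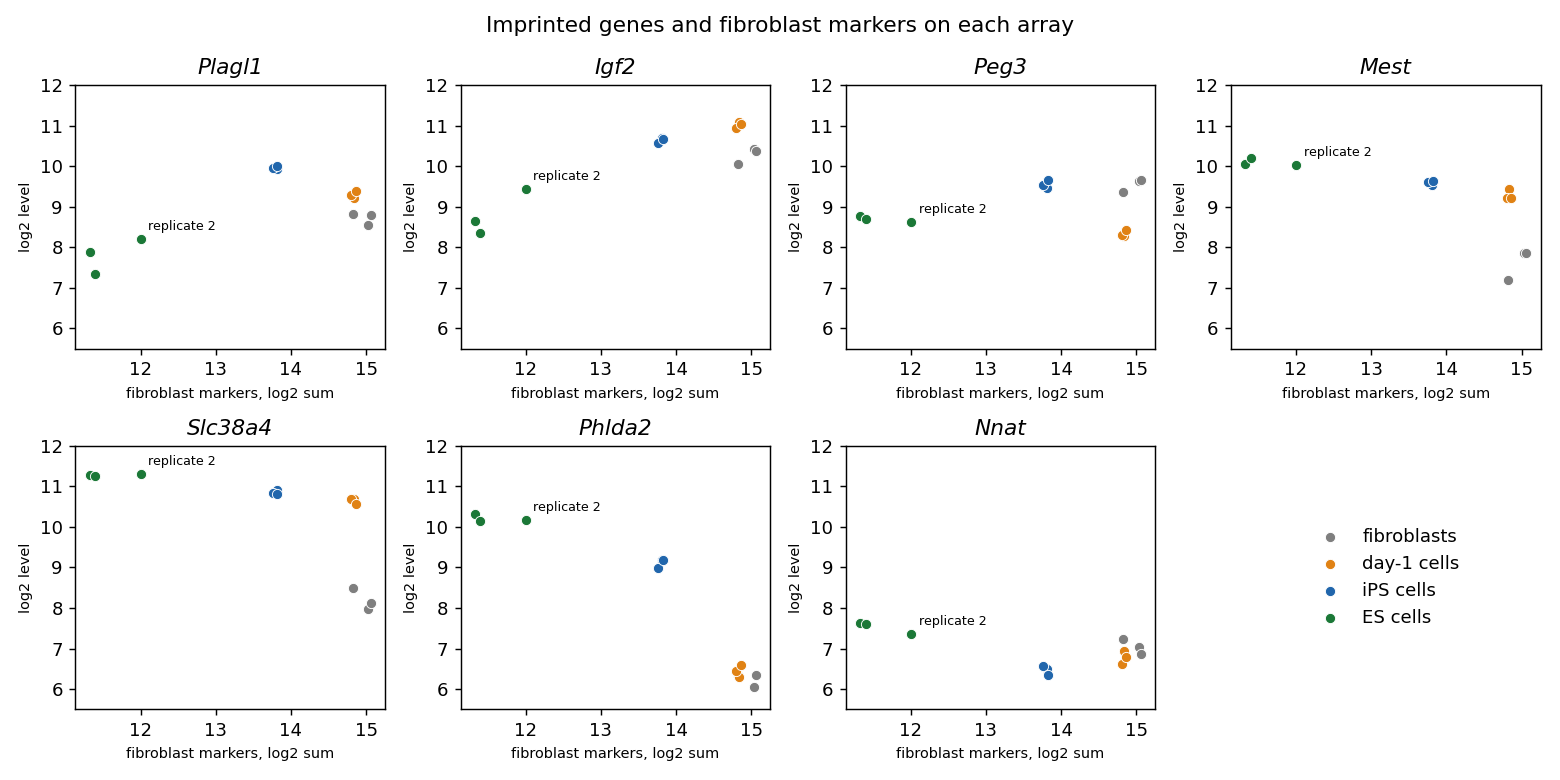
Log2 level of each of the 7 genes (y axis) against the log2 sum of 11 fibroblast markers (x axis) on each of the 12 arrays, coloured by group. ES replicate 2, at a marker sum of 12.01, is the highest ES array for Plagl1 and Igf2, and the iPS arrays at 13.76 to 13.82 have the highest Plagl1 levels of all.

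Other imprinted genes were counted from a list of 53, of which 25 were measured. In iPS against ES cells 1 of the 25 was called, Dcn, a matrix proteoglycan gene imprinted in placenta, which was lower in iPS cells (-2.08 ± 0.12; adjusted p = 3.9e-08). The median difference of the 25 was -0.24 against 0.01 over all genes, and 4.0% of them were called against 6.90% of all genes. By limma 0 of 12 paternally expressed genes were called in that comparison, and 10 had an unadjusted p under 0.05. The adjusted p was under 0.05 for 10 as well, and for 5502 of all 9539 genes. Against fibroblasts, 6 of the 25 rose and 9 fell in iPS cells, and 6 rose and 9 fell in ES cells, with a median of -0.40 and -0.04 where all genes had -0.35 and -0.35. In both lines 60.0% of the 25 were called, against 51.3% of all genes in iPS and 55.6% in ES cells. The paternally expressed genes with the greatest differences in iPS cells against fibroblasts were Zdbf2 (3.58 ± 0.14), the antisense transcript Airn (-3.16 ± 0.12), the sarcoglycan gene Sgce (-3.02 ± 0.10) and Ndn, which encodes necdin (-2.40 ± 0.11). In ES cells the same 4 differed by 4.45 ± 0.14, -3.35 ± 0.12, -3.39 ± 0.10 and -2.81 ± 0.11. Of the maternally expressed genes, Dcn (-5.62 ± 0.12), Ampd3 (-2.60 ± 0.15), H13 (-2.42 ± 0.06) and the lipid-binding protein gene Osbpl5 (-2.33 ± 0.10) differed most in iPS cells against fibroblasts. In day-1 cells against fibroblasts 2 of the 25 fell, Airn (-1.96 ± 0.12; adjusted p = 3.0e-08) and Dcn (-1.42 ± 0.12; adjusted p = 6.6e-07), and 0 rose. This is 8.0% of the 25 against 7.79% of all genes, a share at the background. That count was 4 without fibroblast replicate 1 or without fibroblast replicate 2.

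At the Meg3 locus 4 of 6 listed genes were measured. Meg3 (-1.46 ± 0.10) and Rian (-1.27 ± 0.16), both noncoding and maternal, fell in day-1 cells, and Dlk1, which encodes a paternal Notch-family ligand, fell in iPS (-2.02 ± 0.13) and ES cells (-1.70 ± 0.13) against fibroblasts. In iPS against ES cells limma called 0 of the 4, with 2 at an unadjusted p under 0.05. Calls among all genes were 7.79% in day-1, 51.3% in iPS and 55.6% in ES cells against fibroblasts, and 6.90% between the pluripotent lines. Between those lines 5502 of the 9539 genes had a limma adjusted p under 0.05, so these counts say little about the locus.

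**Figure D4:**
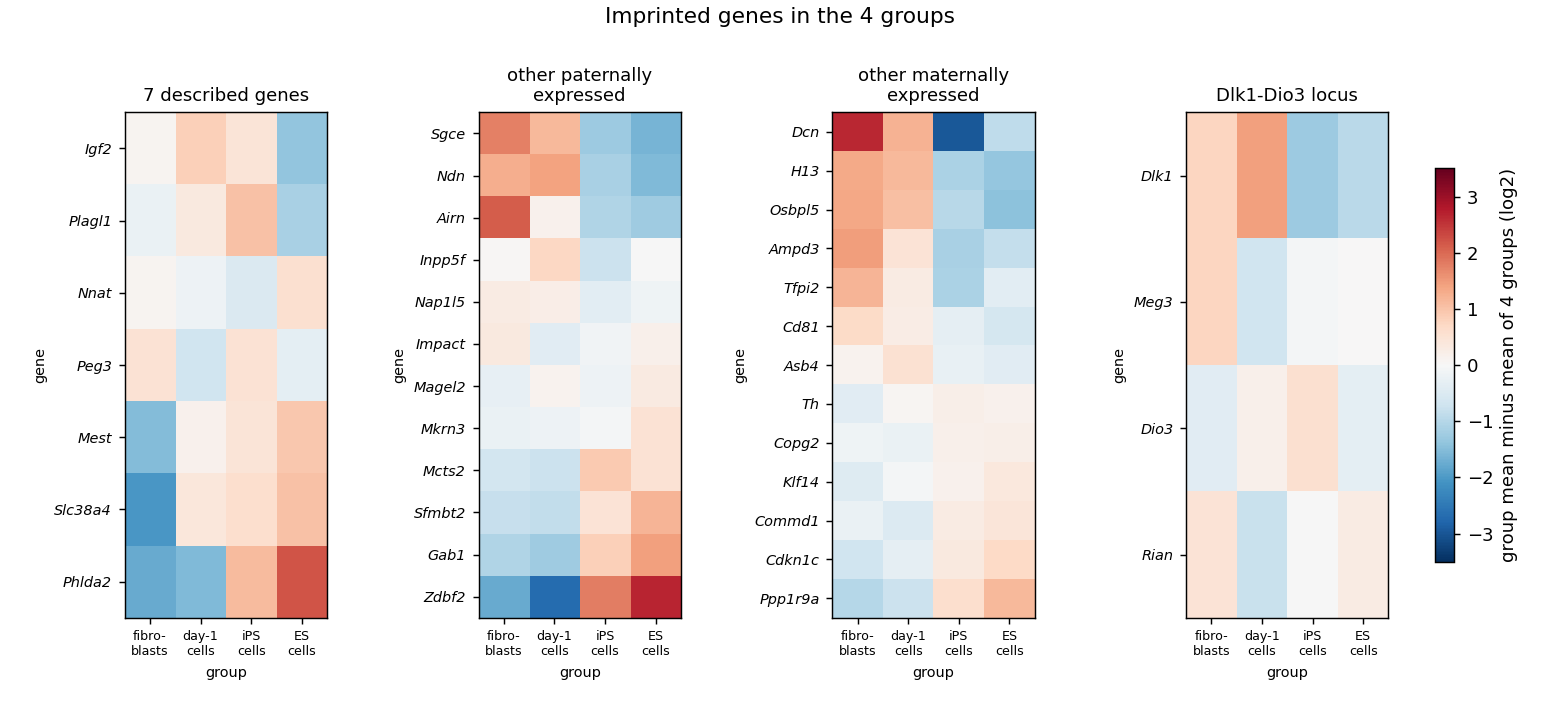
Mean log2 level of each group minus the mean of the 4 groups (colour) for the 7 genes, 12 other paternally and 13 other maternally expressed genes, and 4 genes of the Dlk1-Dio3 locus (rows). Sgce, Ndn, H13 and Osbpl5 are higher in both fibroblast groups and Zdbf2, Gab1 and Ppp1r9a in both pluripotent lines, whereas Igf2 and Plagl1 part iPS from ES cells.

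The Igf2 pathway was listed apart as the related ligand Igf1, the receptors, the adaptors Irs1 and Irs2, the secreted binding proteins and the proteins that bind Igf2 messenger RNA, and 12 of 15 were measured. In iPS cells 2 of the 12 rose and 9 fell against fibroblasts, with a median of -1.89, and in ES cells again 2 rose and 9 fell, with a median of -2.21. These calls are 91.7% of the 12 in both lines, against 51.3% of all genes in iPS and 55.6% in ES cells, where the median of all genes was -0.35 in each. Among those that fell in both lines were Igf1, Irs1 and the receptor genes Igf1r and Insr. Igfbp2, a secreted carrier of IGFs, rose by 3.74 ± 0.07 in iPS cells and 3.68 ± 0.07 in ES cells. Igf2bp1, which binds Igf2 messenger RNA, rose by 2.98 ± 0.10 and 4.43 ± 0.10. The carriers Igfbp4 (-2.84 ± 0.09) and Igfbp3 (-2.61 ± 0.17) were among those that fell in iPS cells. Between iPS and ES cells 2 of the 12 were called, Igfbp7 higher (1.99 ± 0.15; adjusted p = 2.8e-07) and Igf2bp1 lower in iPS cells (-1.45 ± 0.10; adjusted p = 2.4e-07). That is 16.7% of the 12 against 6.90% of all genes. In day-1 cells Igfbp3 alone was called (-2.03 ± 0.17; adjusted p = 6.8e-07), which is 8.33% of the 12 against 7.79% of all genes.

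Factors that write, keep or erase methylation at imprints were measured for 17 of 18 listed genes. Against fibroblasts 11 rose and 1 fell in iPS cells (median 1.46), and 13 rose and 1 fell in ES cells (median 2.23). Calls among all genes were 21.8% higher and 29.6% lower in iPS cells, and 23.4% higher and 32.1% lower in ES cells. The 4 with the greatest differences in iPS cells were Dnmt3l, a cofactor of DNA methylation (4.71 ± 0.10), Uhrf1, which recruits the maintenance methyltransferase (3.71 ± 0.12), Tet1 (3.58 ± 0.09) and the methyltransferase gene Dnmt3b (3.50 ± 0.17). In day-1 cells Uhrf1 was the sole call (1.38 ± 0.12; adjusted p = 7.0e-07), 5.88% of the 17 against 7.79% of all genes. In iPS against ES cells Tet1 was the sole call and was lower (-1.11 ± 0.09; adjusted p = 5.0e-07), 5.88% of the 17 against 6.90% of all genes.

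How arrays are scaled moved the balance of calls over all genes. The median difference of all genes was -0.35 in iPS cells and -0.35 in ES cells against fibroblasts, and centring the arrays on a common median brought it to -0.10 and 0.00. With that centring 55.9% of the calls in iPS cells against fibroblasts were higher, where 42.4% were higher as deposited, and for ES cells 58.7% against 42.2%. Against day-1 cells the share of calls that were higher went from 39.8% to 55.3% in iPS cells and from 40.9% to 58.3% in ES cells, and for iPS against ES cells from 64.4% to 51.4%. In no comparison did quantile scaling or centring turn the direction of any of the 7 genes.

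The genes whose levels over the 12 arrays were most like those of a member were named by Pearson's r, which here mostly reflects the 4 group means and carries no test. For Plagl1 they were Itga7 (r = 0.97), Oser1 (r = 0.97) and Sesn1 (r = 0.96), and for Igf2 Clcn5 (r = 0.99), Mettl15 (r = 0.98) and Pck2 (r = 0.98). Peg3 was closest to Mt1 (r = 0.97), Tmem87b (r = 0.97) and Mt2 (r = 0.94), of which Mt1 and Mt2 encode metallothioneins. Mest was closest to Rfc4 (r = 0.99), Nup93 (r = 0.98) and H2bc18 (r = 0.98). Slc38a4 was closest to Usp1, Fancb and Pole2 (r = 0.995, 0.9946 and 0.9922). Phlda2 had Spata5, Cdc73 and Ccnb1ip1 (r = 0.9977, 0.9975 and 0.9974), and Nnat had Sdhc (r = 0.94), Chd9 (r = 0.93) and Prps2 (r = 0.93). Among the 7 genes themselves, r was highest for Mest with Slc38a4 (0.96) and for Plagl1 with Igf2 (0.86), and lowest for Plagl1 with Nnat (-0.95).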

How the data were processed

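Levels came from 12 Affymetrix arrays in 4 groups of 3, as 1 table of 10360 probe sets. The deposited values are on a log2 scale, from 2.43 to 13.64, as read from the values; their background correction, normalization and filtering by the authors are not given in the sources used. Every probe set ranged over at least 0.509 across arrays. Platform annotation paired 9542 probe sets with 1 symbol, 344 with several and 474 with none; the last 2 kinds were left out. For 3 genes with several probe sets the brightest was kept, giving 9539 genes.

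limma 3.58.1 (R 4.3.3) was fitted with 1 mean per group over all arrays and genes, with eBayes and Benjamini-Hochberg adjustment over all genes; calls required adjusted p below 0.05 together with a 2-fold change, a log2 difference of 1. The script was tested on simulated data. Promoters were read from RefSeq with Python 3.11.15, pandas 2.3.3 and numpy 2.4.6, and figures drawn with matplotlib 3.10.9. Named genes are the 7 genes, up to 4 called genes with the largest difference per list and comparison, and the 3 genes with the highest r to each member. Marker genes named singly, and Igf1, Irs1, Igf1r and Insr, were picked from their lists after their values were seen. The members and lists were chosen with earlier results of these data known. Alternatives were quantile scaling, centring, a filter on low genes, averaged probe sets, separate fits, another prior, array weights, a replicate block, other fold minimums and leaving out each array.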

Additional observations from a re-analysis of the deposited data

How the results depend on the processing

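Of 624 single-gene values under alternatives, 612 kept their direction and side of the threshold, with 4 calls lost under limma's treat, 5 gained and 3 turned. The turned ones are Peg3 in iPS cells against fibroblasts, which was -0.051 with array weights, -0.095 without fibroblast replicate 1 and -0.054 without iPS replicate 3, and ran from -0.095 to 0.059 when single arrays were left out. Nnat was left out by the filter on the lowest 25% of genes. With no fold minimum, members called numbered 5 in day-1 cells and 7 in ES cells against fibroblasts, 7 between the pluripotent lines, and 4 in iPS and 7 in ES cells against day-1 cells. Other imprinted genes called then numbered 18, 23 and 24 in day-1, iPS and ES cells against fibroblasts, 17 between the pluripotent lines, and 22 and 23 in iPS and ES cells against day-1 cells. Of all 9539 genes, limma gave an adjusted p under 0.05 for 5449, 8985 and 9050 in day-1, iPS and ES cells against fibroblasts. The numbers were 5502 between the pluripotent lines, and 8851 and 8914 in iPS and ES cells against day-1 cells. Treat gave 2 members in iPS against ES cells and 1 other imprinted gene in day-1 cells, and centring gave 5 members in ES against day-1 cells. Leaving out 1 array gave 2 to 4 other imprinted genes in day-1 cells. With the replicate number as a block, the members called stayed at 3 for day-1 cells, 4 for iPS and 4 for ES cells against fibroblasts. They stayed at 4 between the pluripotent lines, and at 2 and 3 for these lines against day-1 cells. Deviations of 18 same-numbered pairs of arrays correlated at -0.21 to 0.06, and those of 36 different-numbered pairs at -0.16 to 0.18. Whether same-numbered arrays share a culture or a day cannot be told from these correlations. With 3 arrays a group, the median standard error was 0.09, and signal over background is not given in the table.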

Other observations

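Imprinted genes lie in clusters, so the nearest measured protein-coding gene on each side of the 7 genes was examined, with gene order taken from RefSeq. Phlda2 lies near Cdkn1c, which encodes a growth-restraining inhibitor of cyclin-dependent kinases and is also expressed from the maternal copy, with 1 protein-coding gene between them. Cdkn1c rose in iPS cells (1.04 ± 0.13, SE; limma adjusted p = 2.9e-06) and ES cells (1.40 ± 0.13; adjusted p = 1.3e-07) against fibroblasts, where Phlda2 rose by 2.87 and 3.96. On the other side Cars, which encodes cysteinyl-tRNA synthetase, rose in iPS cells (1.13 ± 0.07; adjusted p = 2.2e-09) and differed by 0.73 ± 0.07 in ES cells (adjusted p = 1.8e-07), under 2-fold.

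Slc38a1, a related amino acid carrier with 1 gene between it and Slc38a4, rose in iPS (1.84 ± 0.11; adjusted p = 1.4e-09) and ES cells (1.64 ± 0.11; adjusted p = 3.9e-09) against fibroblasts. In day-1 cells it differed by 0.42 ± 0.11 (adjusted p = 0.0044), under 2-fold, where Slc38a4 differed by 2.45. Amigo2, next to Slc38a4 on the other side, was called in 0 of the 6 comparisons by limma, with 4 at an adjusted p under 0.05. Copg2, next to Mest, differed by -0.09 ± 0.08 in day-1 cells (adjusted p = 0.35) and 0.32 ± 0.08 in iPS cells (adjusted p = 0.0013) against fibroblasts, where Mest rose by 1.65 and 1.95. On the other side of Mest, with 8 protein-coding genes between, Zc3hc1 rose in iPS (2.19 ± 0.08; adjusted p = 2.1e-11) and ES cells (2.16 ± 0.08; adjusted p = 1.7e-11) against fibroblasts, and differed by 0.50 ± 0.08 in day-1 cells (adjusted p = 1.7e-04), under 2-fold. Between iPS and ES cells, where Igf2 differed by 1.83, its neighbours Mrpl23 and Th differed by 0.03 ± 0.08 (adjusted p = 0.80) and 0.07 ± 0.11 (adjusted p = 0.62).

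Near Plagl1, Ltv1 rose in iPS (1.06 ± 0.06; adjusted p = 2.6e-09) and ES cells (1.33 ± 0.06; adjusted p = 2.2e-10) against fibroblasts, where Plagl1 differed by 1.24 and -0.92. The measured genes nearest to Peg3 were Zfp667, with 13 protein-coding genes between, and Aurkc on the other side, with 1 between. Zfp667 (1.17 ± 0.08) and Aurkc (1.01 ± 0.11) rose in iPS cells against fibroblasts, where Peg3 differed by 0.00. Ctnnbl1, next to Nnat, rose in ES cells against fibroblasts (1.18 ± 0.08; adjusted p = 9.0e-09), where Nnat differed by 0.48. The remaining neighbours, Sf3b5 near Plagl1 and Src near Nnat, were not called in any of the 6 comparisons, but showed differences under 2-fold. In iPS against ES cells these were 0.46 ± 0.08 for Sf3b5 (limma adjusted p = 3.1e-04) and 0.38 ± 0.07 for Src (adjusted p = 2.8e-04).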
